A study of Mus musculus with 60 samples.

Results

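The Zfp genes described here were the genes of the deposited gene table whose mouse symbol starts with Zfp followed by a digit and whose value averaged at least 100 over the 60 mice. They were selected on that average, so their levels are given as a description. By this rule 127 of the 9066 genes of the table were members, and they held 983 of its 114691 exon rows. A further 12 Zfp genes averaged under 100. Just under the limit were Zfp182, at a mean of 97.3, and Zfp551, at 95.1, and just above it were Zfp169, at 113, and Zfp382, also at 113.

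The samples were hand-dissected striata, 1 library per mouse, from HS-CC mice, an outbred stock made by intercrossing the founder strains of the collaborative cross. Breeding in earlier generations had selected for the response to haloperidol, an antipsychotic that blocks dopamine D2 receptors and can cause catalepsy, a state of immobility. This breeding history covers all groups. Whether responders and non-responders came from the same line or from separate lines is not stated. The labels give sex and catalepsy phenotype and no age, line or litter. There were 28 females, 13 of them non-responders and 15 responders, and 32 males, 17 of them non-responders and 15 responders. Each p-value below rests on the spread between single mice, with no term for line or litter. The part of line or family in the response differences was not tested.

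Zfp is the mouse symbol for a zinc finger protein, and most of the proteins so named carry Cys2His2 fingers, short loops held by a zinc ion that read DNA or, in some members, bind RNA or other proteins. A large class joins an array of such fingers to a KRAB domain, which recruits the corepressor Trim28 and with it histone methylation and heterochromatin. The KRAB class arose largely by tandem duplication, lies in clusters along the chromosomes and is best known for silencing transposable elements, while the members without KRAB include splicing cofactors, ubiquitin ligases and developmental regulators of neurons.

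In the longest protein that GENCODE M21 gives for each gene, the Cys2His2 finger pattern occurred a median of 9 times per member. It was found 10 or more times in 51 members and not at all in 5, which were Zfp330, Zfp608, Zfp609, Zfp704 and Zfp839. Zfp462 held the most, with 33, followed by Zfp142 with 32 and by Zfp236 and Zfp729b with 30 each. A KRAB pattern was found in 32 of the 127 members. It was searched as 1 strict run of residues, so members without the pattern were not shown to lack a KRAB domain. Zfp445, at a mean of 1756, was among those without it. Contrasts between the 2 sets below are therefore contrasts of the pattern, not of the KRAB class. The members lay on 19 chromosomes, with 26 on chromosome 7, 11 on chromosome 11 and 10 each on chromosomes 2 and 17. On the X chromosome there were 2, Zfp275 and Zfp280c. Zfp genes of 1 cluster can be near-identical in their finger arrays, so reads may have been split among Zfp760, Zfp942 and Zfp945 on chromosome 17 or lost from Zfp729b on chromosome 13. Zfp174 and Zfp597, and likewise Zfp668 and Zfp646, overlap in GENCODE M21, and the counting is not stated to have used strand.

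The promoters of members whose levels moved together over the mice are shown first, because the correlations further on turn on these genes. Zfp62 and Zfp120 had the highest correlation once library quality was held fixed, and Zfp507 and Zfp871 the highest one without that step. The windows are RefSeq promoters on GRCm38.p6, from 250 bases before to 50 bases after a transcription start, written 5′ to 3′ on the strand of the gene. Capitals mark an exact match, on either strand, to one of the 4 motifs described after the sequences.
Zfp120, chr2:150136629-150136928, minus strand: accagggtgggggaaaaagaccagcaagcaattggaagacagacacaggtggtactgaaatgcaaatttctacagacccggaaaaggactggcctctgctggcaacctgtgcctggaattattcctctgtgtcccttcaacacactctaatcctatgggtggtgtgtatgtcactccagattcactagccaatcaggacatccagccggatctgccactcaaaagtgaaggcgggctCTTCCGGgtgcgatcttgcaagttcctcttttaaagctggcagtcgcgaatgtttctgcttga
Zfp62, chr11:49203481-49203780, plus strand: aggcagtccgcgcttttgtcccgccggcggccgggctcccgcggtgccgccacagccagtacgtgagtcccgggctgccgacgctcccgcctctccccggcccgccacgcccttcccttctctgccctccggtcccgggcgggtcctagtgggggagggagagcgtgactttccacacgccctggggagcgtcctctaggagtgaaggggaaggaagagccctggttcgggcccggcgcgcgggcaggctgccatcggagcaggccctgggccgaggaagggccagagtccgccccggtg
Zfp507, chr7:35802940-35803239, minus strand: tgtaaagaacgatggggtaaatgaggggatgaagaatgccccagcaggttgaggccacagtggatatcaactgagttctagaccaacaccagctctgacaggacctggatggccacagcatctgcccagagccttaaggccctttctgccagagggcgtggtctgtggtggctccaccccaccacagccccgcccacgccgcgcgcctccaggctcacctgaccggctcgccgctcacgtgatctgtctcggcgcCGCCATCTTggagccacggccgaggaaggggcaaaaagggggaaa
Zfp871, chr17:32788238-32788537, minus strand: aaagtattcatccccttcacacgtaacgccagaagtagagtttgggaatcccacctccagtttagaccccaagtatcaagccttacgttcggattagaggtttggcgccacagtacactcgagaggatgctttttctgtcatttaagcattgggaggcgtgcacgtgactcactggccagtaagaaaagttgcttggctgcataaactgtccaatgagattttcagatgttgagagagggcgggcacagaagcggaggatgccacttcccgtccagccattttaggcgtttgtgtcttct

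RefSeq gave 129 promoter windows for 100 of the 127 members. The dinucleotide CG occurred a median of 19 times in a member's window, against 7 times over all 32851 windows. The full set also holds windows of genes not measured here, while the members were chosen for their level in striatum. No set limited to genes of like level was searched, and each of the 4 motifs contains CG. The differences from all windows were therefore not shown to be particular to Zfp genes. The letters CCGGAAG, a core bound by ETS factors, were found in 18.6% of the member windows and in 8.86% of all windows, and the window of Zfp120 held 1 match. The letters GCATGCGC, which NRF1 reads, were found in 7.75% of the member windows against 2.71% of all. The letters AAGATGGCG, the motif of the zinc finger protein YY1, occurred in 3.1% against 1.4%, with 1 match in the window of Zfp507. The cyclic AMP response element TGACGTCA occurred in 3.1% against 1.79%. The printed windows of Zfp62 and Zfp871 held no match to any of the 4 motifs. Both strands were searched, the motifs share no overlap in the printed windows, and a match is a description of letters, not of binding.

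Levels are given as deposited gene values, which are read counts scaled by a factor per library and not divided by gene length. The members averaged from 113 to 6390, with a median over members of 420, and 24 of them averaged 1000 or more. Zfp106, an RNA-binding protein needed for motor neuron and muscle integrity, had the highest value, with a lowest mouse of 3481, a median of 6391 and a highest mouse of 9382. Zfp706, a very small protein with a single finger, ranged from 2666 to 5373 around a median of 3641. Zfp91, a ubiquitin ligase of noncanonical NF-kappaB signalling, ranged from 2780 to 5088 around 3439. Zfp638, a nuclear RNA-binding protein, ranged from 2831 to 4166, and Zfp148, a repressor of GC-rich promoters, from 2004 to 3572. The ranges of these genes overlap, and Zfp106 was the member whose median lay above the highest mouse of each of the others.

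**Figure D1:**
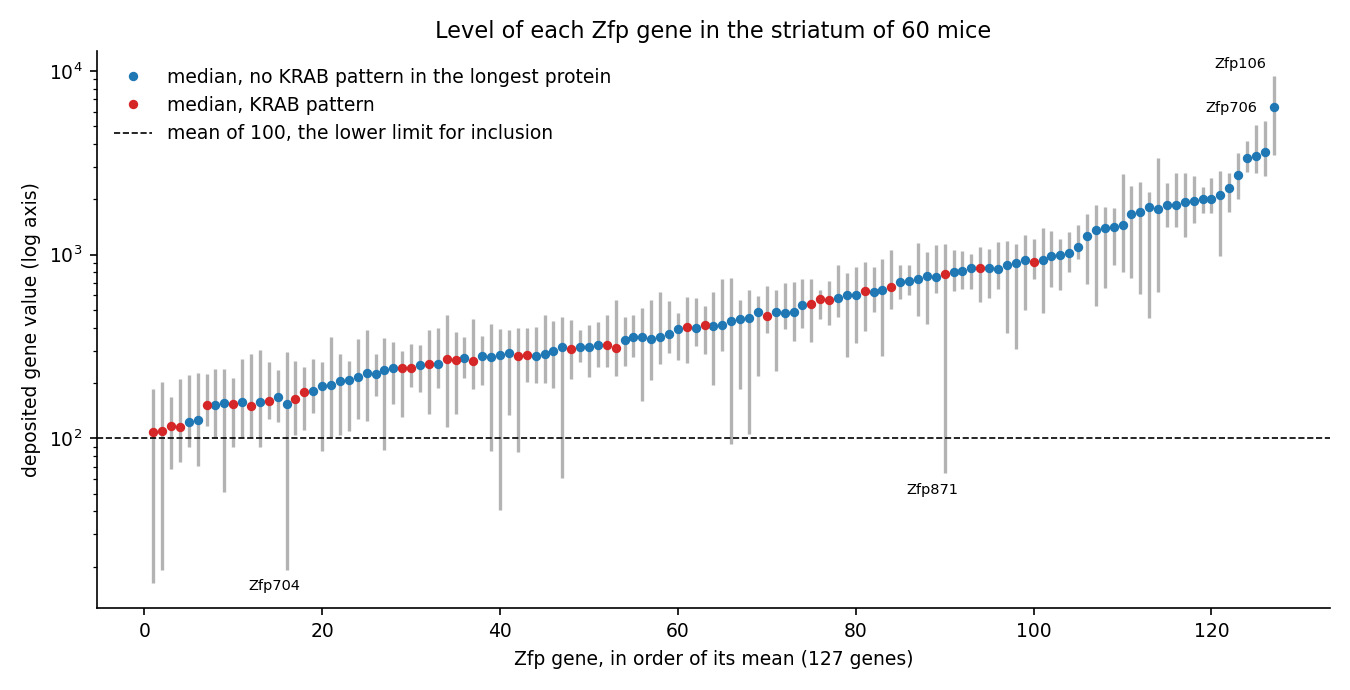
Deposited gene value (log axis) of each of the 127 Zfp genes, ordered by mean, with the median over the 60 mice as a point and the lowest to highest mouse as a grey line. Red points mark the 32 genes with a KRAB pattern, which averaged up to 918, and long lines reaching down, as for Zfp704 and Zfp871, come from a few mice.

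Per kilobase of exonic length in GENCODE M21, the order changed. Zfp706 was first on this scale, at a mean of 759 per kilobase, followed by Zfp106 at 613, Zfp740 at 394, Zfp91 at 348 and Zfp180 at 323. The median over members was 79.4 per kilobase. Zfp704 was lowest at 11.1 per kilobase, next to Zfp169 at 14.1, Zfp26 at 20.2 and Zfp277 at 21.2. The 32 members with a KRAB pattern had a median of their mean values of 283, against 494 in the 95 members without it, and their highest mean was 918.

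Members of known function outside the KRAB class were measured throughout. Zfp598, the ubiquitin ligase that marks stalled ribosomes, averaged 835 ± 88.0 (SD, n = 60 mice), and Zfp622, a maturation factor of the large ribosomal subunit, averaged 776 ± 111. Zfp24, which is needed for central myelination, averaged 1117 ± 122. Zfp521 and Zfp536, both regulators of neural differentiation, averaged 605 ± 99.1 and 445 ± 133. Zfp335, a gene of neural progenitors, averaged 360 ± 62.6, and Zfp804a, the mouse counterpart of a human gene studied in schizophrenia, averaged 914 ± 162. None of these averages was compared between genes, since the values are not per length.

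The coefficient of variation over the 60 mice, the SD divided by the mean, had a median of 0.159 over the members. It was 0.156 over the 7849 genes that averaged at least 100. Those genes were not matched for level, as their mean values had a median of 784 against 420 for the members, and the coefficient depends on level. Of the 127 members, 96 had a coefficient under 0.2. The most even members were Zfp672 at 0.065, Zfp740 at 0.077, Zfp746 at 0.078, Zfp629 at 0.089 and Zfp410, an activator of the chromatin remodeler gene Chd4, at 0.096. Zfp672 ranged from 605 to 874 over the mice. The most variable were Zfp704 at 0.357, Zfp871 at 0.308, Zfp462 and Zfp169 at 0.306 and Zfp536 at 0.299.

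Without the 4 libraries of strongest 3′ bias, described next, these coefficients were 0.288 for Zfp704, 0.211 for Zfp871, 0.263 for Zfp462, 0.236 for Zfp169 and 0.233 for Zfp536, and the medians were 0.131 over members and 0.137 over the 7849 genes. Whole reads recovered from the gene table numbered from 4913122 to 21872744 per mouse, in separate ranges of 17 shallow libraries (4913122 to 9507322) and 43 deep ones (12051239 to 21872744). The 3′ bias of a library says how far its reads lean toward the end of the transcripts. For each of 4080 genes a line was fitted to the log2 exon values from first to last row, relative to the average mouse, and the middle slope was kept. Mouse 63, a female responder, stood at 1.56 and mouse 5, a female non-responder, at 0.931. Mouse 4, a male responder, stood at 0.705 and mouse 62, a male non-responder, at 0.485, so each group held 1 of these mice. In the shallow libraries it ranged from -0.306 to -0.0145 and in the deep ones from -0.151 to 1.56, so depth range and 3′ bias moved together. The measure rests on the exon values of the same libraries, members included. Summed cell type markers in these mice are given here as values, with no test. In mice 63, 5, 4 and 62 the microglia sum, over 7 of 10 listed genes, was 11193, 8986, 8341 and 11617, against 4656 to 11017 around a median of 6801 in the other 56. The oligodendrocyte sum, over 6 of 10, was 194747 to 248698 against 92015 to 269550 around a median of 149697. The striatal neuron sum, over 7 of 10, was 103621 to 135136 against 57073 to 118402 around 88810. The astrocyte sum, over 7 of 10, was 90726 to 120924 against 92208 to 183949 around 133164. The endothelial and mural sum, over 3 of 10, was 1012 in mouse 63, below the lowest of the other 56 at 1172. It was 1893, 1948 and 1322 in mice 5, 4 and 62, within the range of the other 56, which reached 2211 around a median of 1754. The cortical neuron sum, over 4 of 10, was 24251 to 30120 against 12574.5 to 39135 around 23887. The part of cell makeup in the values of the 4 mice was not tested.

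Zfp871, a KRAB member on chromosome 17, read 64.7, 127, 215 and 179 in these libraries, in the order mouse 63, 5, 4 and 62. In the other 56 mice it ranged from 511 to 1148 around a median of 801. The strongly biased libraries thus did not overlap with the rest, and the highest mouse exceeded the lowest 17.8-fold, the widest ratio of any member. Zfp704 read 19.3, 49.02, 33.7 and 64.7 in the same order, below the lowest of the other 56 mice at 110. Zfp507 read 40.6, 92.5, 110 and 145, below a range of 202 to 394. Zfp382, a KRAB repressor, read 19.3, 35.1, 43.9 and 39.2 against 74.5 to 202.

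Other members moved the opposite way. Zfp637 read 627, 501, 456 and 499 in mice 63, 5, 4 and 62, above a range of 253 to 409 in the other 56 mice. Zfp524 read 196, 222, 212 and 192, above a range of 89.4 to 172. Zfp771 read 557, 568, 534 and 553, above a range of 208 to 481. They measure 2565, 1436 and 2009 bases of exon in GENCODE M21, against a median of 6660 over the members.

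In a limma fit of log2(value + 1) on 3′ bias, depth range, response and sex over 8535 genes, 61 of the 127 members (48%) fell with 3′ bias and 30 (23.6%) rose. The background was that 34.8% of all genes tested fell and 35.1% rose. The median slope was -0.15 on the log2 scale per unit of bias over members and -0.00084 over all genes. Zfp871 had the steepest slope, at -2.38 (SE 0.11, limma adjusted p = 1.8e-28), and Zfp507 followed the same course at -1.66 (SE 0.08, limma adjusted p = 9.2e-28). Zfp704 was at -1.89, Zfp169 at -1.67, Zfp382 at -1.66, Zfp369 at -1.65, and Zfp536 at -1.55. Zfp445, which with Zfp57 maintains genomic imprints and was the 1 measured gene of 6 listed for imprints and repeat silencing, had a slope of -1.20. At the rising end were Zfp524 at 0.60, Zfp771 at 0.59, Zfp868 at 0.58, Zfp120 and Zfp428 at 0.56 and Zfp637 at 0.51.

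Without the 4 strongly biased mice, 1 member fell and 1 rose, so the counts rest on those libraries. Several of the slopes just given do so too: Zfp445 turned to 0.17, Zfp428 to -0.17, Zfp771 to -0.015 and Zfp524 to -0.050, while Zfp704 was at -0.78, Zfp169 at -0.44 and Zfp369 at -0.74, and none of these 7 passed the threshold. Zfp382 at -1.16, Zfp536 at -1.455, Zfp868 at 0.60, Zfp120 at 0.62 and Zfp637 at 0.48 kept their sign and also missed the threshold. Zfp507 was the member that still fell, at -1.20 (limma adjusted p = 0.0328), while Zfp871 had a slope of -1.25 (limma adjusted p = 0.0559). The member that rose was Zfp692, at 1.855 (limma adjusted p = 0.02515), which is not among the rising members named above. Without mouse 63 the counts were 59 and 25.

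**Figure D2:**
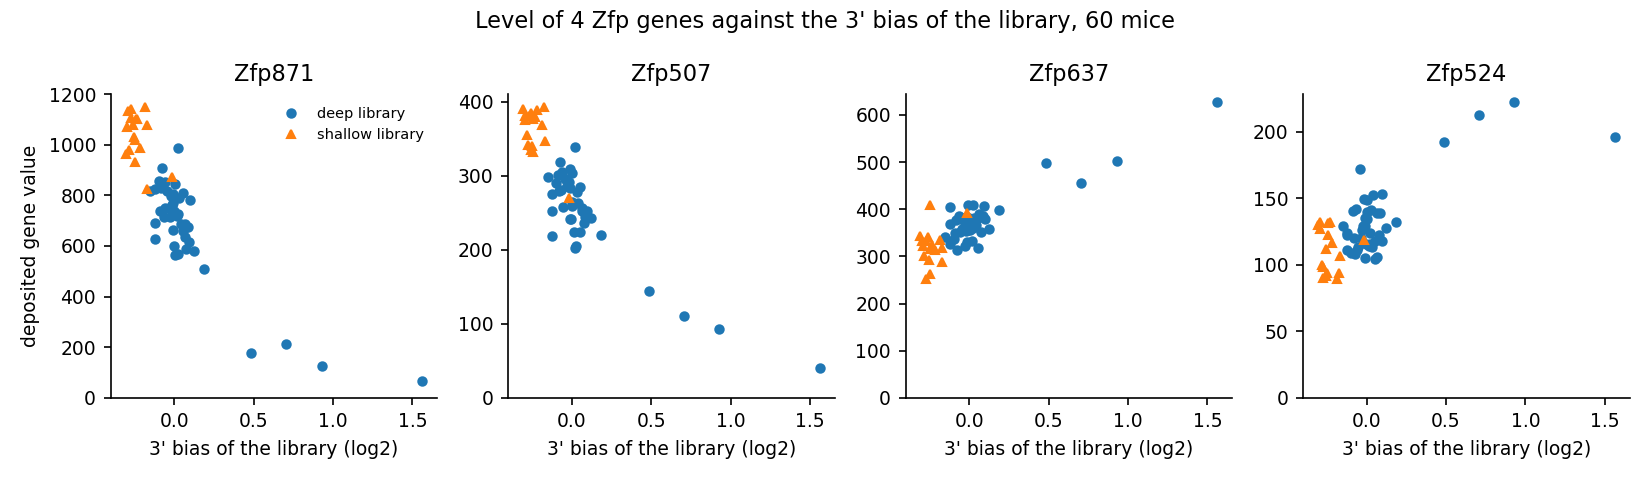
Deposited gene value of Zfp871, Zfp507, Zfp637 and Zfp524 against the 3′ bias of the library (log2 slope from first to last exon row), 1 point per mouse, blue circles for 43 deep and orange triangles for 17 shallow libraries. Zfp871 and Zfp507 drop in the 4 libraries to the right, to 64.7 and 40.6 in mouse 63, and Zfp637 and Zfp524 rise there.

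The members that fell had a median exonic length of 8017 bases, a median of 7 exon rows and a median mean value of 477. Those that rose had a median length of 3957 bases, 4.5 exon rows and a value of 295, and the 36 members called in neither direction had 6266 bases, 6 rows and 515. The KRAB pattern was present in 9 of the 61 that fell, 8 of the 30 that rose and 15 of the other 36. These medians are descriptions over genes.

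The shallow and deep libraries also differed in the same fit. Shallow libraries were higher in 13 members (10.2%) and lower in 5 (3.94%), against a background of 10.8% and 7.9% of all genes, so the members stood near the background when higher and below it when lower. Zfp462, a many-fingered protein of neurodevelopment, ranged from 1632 to 3346 around a median of 2572 in the 17 shallow libraries. In the 43 deep libraries it ranged from 625 to 2190 around 1607, so the ranges overlapped. Its mean log2 level was 11.29 in shallow and 10.59 in deep libraries with nothing held fixed. With 3′ bias, response and sex held fixed, the difference was smaller, at 0.36 (log2, SE 0.07, limma adjusted p = 1.6e-05). In this fit Zfp407 differed by 0.28 and Zfp451, a SUMO ligase, by 0.27. Zfp180 was lower in the shallow libraries by -0.36 and Zfp830, a pre-mRNA splicing protein, by -0.22. With nothing held fixed, their medians were 1141 against 1575 for Zfp180 and 248 against 298 for Zfp830. The differences of Zfp407 and Zfp180 missed the threshold without the 4 biased mice (limma adjusted p = 0.277 and 0.0976).

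With 3′ bias, depth range and sex held fixed, the residual SD on the log2 scale had a median of 0.17 over members and 0.19 over genes averaging at least 100. These library terms took a median of 37.5% of the variance of a member, against 28.9% over those genes, and 92.4% for Zfp507 and 91.6% for Zfp871. In the members with a KRAB pattern the median was 15.6% and in the others 42.1%. The members with the largest residual SD were Zfp618 at 0.35, Zfp180 and Zfp286 at 0.31 and Zfp157 and Zfp697 at 0.30. For Zfp157 the library terms took 0.426% of the variance and for Zfp286 2.88%. Zfp157 ranged from 185 to 445 around 265 and Zfp286 from 105 to 289 around 206.

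The largest gap between neighbouring mice, of any position, was 1.25 on the log2 scale for Zfp871, between the 4 strongly biased mice and the other 56. In Zfp369 and Zfp536 the same 4 against 56 split gave gaps of 0.97 and 0.74. Among gaps that left at least 6 mice on each side, which by construction leaves out a split at 4 mice, the largest was 0.19 on the log2 scale for Zfp618, with 6 mice below and 54 above. It was 0.19 for Zfp382, 0.14 for Zfp831, 0.13 for Zfp536 and 0.12 for Zfp407.

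The comparison of catalepsy responders with non-responders asked whether any Zfp gene differed in level with the response to haloperidol. No member passed the threshold. limma with sex as a term called 9 of 8535 genes at an adjusted p under 0.05, or 0.105%, and 0 of the 127 members. By edgeR on recovered reads and by DESeq2 the count of members was also 0, with 7 and 23 genes called in all. At an unadjusted p under 0.05 limma found 3 members, or 2.36%, against 6.49% of all genes. Over the 14 alternatives this count ranged from 0 members to 13, the latter with 3′ bias and depth range as terms, where it was 10.2% of the members and 11.7% of all genes. The 3 members were Zfp326, Zfp263 and Zfp945, each higher in responders.

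Zfp326, a subunit of the complex that couples elongation by RNA polymerase II to splicing, ranged from 399 to 626 around a median of 506 in the 30 non-responders. In the 30 responders it ranged from 441 to 741 around 550. The ranges overlap widely, and the difference was 0.11 (log2, SE 0.04, limma adjusted p = 0.454). Its median was 507 in female non-responders and 557 in female responders, 502 in male non-responders and 541 in male responders. Zfp263, a DNA-binding protein with a SCAN domain, had medians of 347 and 371, a difference of 0.09 (SE 0.04, limma adjusted p = 0.581). Zfp945 had medians of 390 and 409, a difference of 0.13 (SE 0.07, limma adjusted p = 0.764). Next in order were Zfp760 at 0.14, Zfp62 at 0.09, Zfp180 at 0.17, Zfp120 at 0.15 and Zfp217 at 0.14, with limma adjusted p from 0.794 to 0.855.

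Responders were above non-responders in 71 members and below in 56, with a median difference of 0.0050 over members and -0.0033 over all genes. The differences ranged from -0.16 to 0.17. The 95% interval of the difference stayed within 0.5 on the log2 scale for 127 of 127 members and for 8243 of the 8535 genes tested. Zfp106 had medians of 5890 in non-responders and 6801 in responders, with ranges of 4393 to 8213 and 3481 to 9382 that overlap almost throughout. Zfp521 had medians of 603 and 602, and Zfp536 of 434 and 442.

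**Figure D3:**
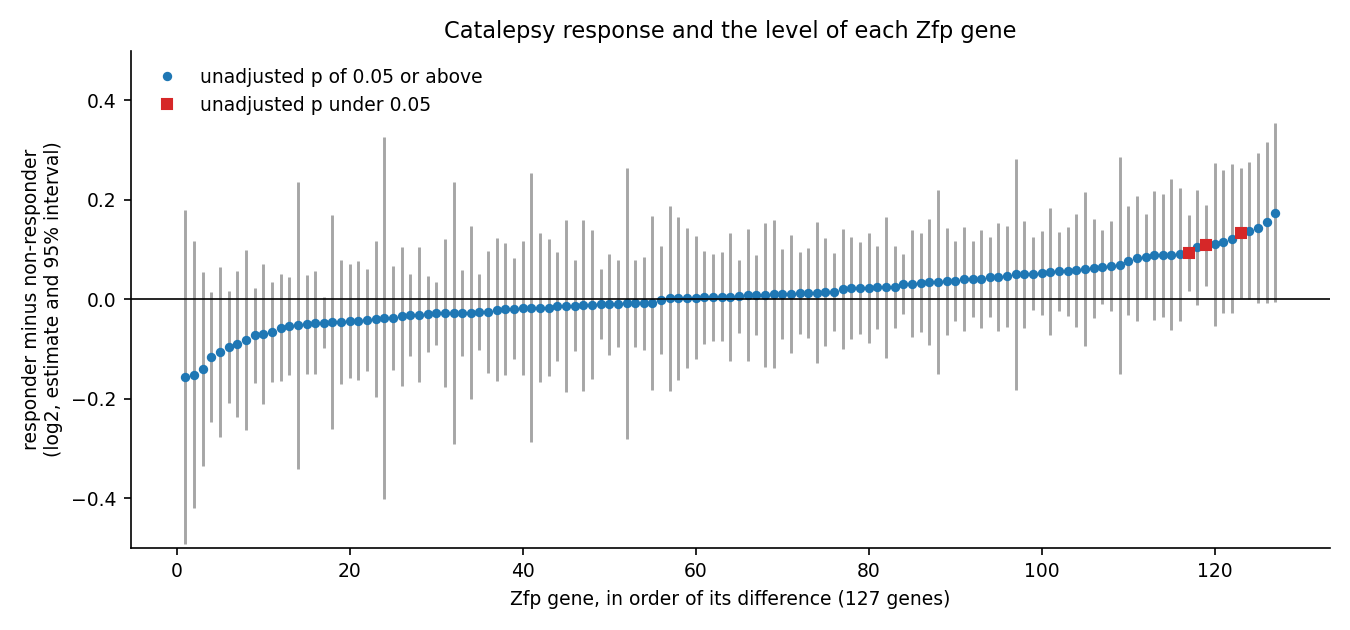
Difference between 30 responders and 30 non-responders (log2, limma estimate as a point and its 95% interval as a line) for each of the 127 Zfp genes, in order of size. Red squares mark Zfp326, Zfp263 and Zfp945, the 3 genes with an unadjusted p under 0.05, and differences run from -0.16 to 0.17.

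The partners of the KRAB class were compared in the same way. Of 30 listed genes of the KRAB corepressor machinery, which comprises Trim28, histone methyltransferases, HP1 proteins and deacetylase complexes, 25 were measured and limma called 0 with response and 0 with sex, with 1 and 0 at an unadjusted p under 0.05. Mta1, a subunit of the NuRD deacetylase complex, was the 1 gene, at -0.09 (SE 0.04). Their median response difference was -0.01. Among 63 genes of other zinc finger families taken by symbol, such as Zbtb, Klf and Egr genes, limma called 0 with response and 0 with sex, with 0 and 2 at an unadjusted p under 0.05. The 3′ bias slopes called by limma were 12 lower and 5 higher in the corepressor list and 49 lower and 3 higher in the other families, where 34.8% of all genes were lower and 35.1% higher. Without the 4 strongly biased mice these counts were 0 and 0 in the corepressor list and 1 and 0 in the other families, and 32 and 7 over all genes.

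Marker sums overlapped between responders and non-responders. Of 10 listed markers each, 7 were measured for striatal projection neurons, 4 for cortical projection neurons, 6 for oligodendrocytes, 7 for astrocytes, 7 for microglia and 3 for endothelial and mural cells, and 0 for choroid plexus and ependyma. The striatal sum ranged from 57073 to 135136 in non-responders and from 61354 to 115992 in responders. Since striatum holds many cell types, fewer cells of a type and less RNA per cell cannot be told apart for any gene here.

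Between the sexes, limma called 3 of 8535 genes, or 0.0351%, and 0 of the 127 members, as did edgeR and DESeq2 for the members. At an unadjusted p under 0.05 there were 2 members, or 1.57%, against 2.04% of all genes. Zfp46, a KRAB member on chromosome 4, ranged from 550 to 1015 around 823 in 28 females and from 660 to 1099 around 880 in 32 males. The ranges overlap, and the difference was 0.13 (log2, SE 0.05, limma adjusted p = 1). Zfp687 had medians of 587 in females and 627 in males, also a difference of 0.13 (SE 0.06, limma adjusted p = 1). Zfp800 was at -0.10 and Zfp839 at 0.10.

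Whether the response difference varied with sex was tested by the interaction term. limma called 0 of 8535 genes, or 0%, and 0 members, with 2 members (1.57%) at an unadjusted p under 0.05 against 0.562% of all genes, and edgeR and DESeq2 called 0 members. For Zfp710 the median was 685 in female non-responders and 704 in female responders, and 754 in male non-responders and 709 in male responders, an interaction of -0.19 (SE 0.08, limma adjusted p = 1). For Zfp800 the medians were 341, 325, 294 and 311 in the same order, an interaction of 0.21 (SE 0.10, limma adjusted p = 1). The ranges of the 4 groups overlap for both genes.

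The exon table gave the members from 1 to 31 rows, with a median of 6 against 11 for genes averaging at least 100. Of the 126 members with more than 1 row, 100 had their largest row last in the gene, and the largest row held over 50% of the exon values in 94. The median share of the largest row was 77.2%. These counts and shares were not set against those of other genes, so the layout was not shown to be particular to Zfp genes. This layout, in which a long final exon carries the finger array and the trailer, is usual for finger proteins of the KRAB type. A dominant last row was also seen in Zfp706 and Zfp91, both without a KRAB pattern. Zfp706 had 95.1% ± 0.750 of its values in row 4 of 4 and Zfp91 92.0% ± 1.38 in row 10 of 10 (SD, n = 60).

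Among members with many exon rows, Zfp618 kept 94.3% ± 2.32 in row 19 of 19 and Zfp148 87.6% ± 2.23 in row 10 of 10. Others departed from this layout, with a largest row that held under 50% of the values or was not last. Zfp106 had 46.3% ± 5.05 in row 20 of 20, and Zfp638 28.6% ± 1.36 in row 23 of 30. Zfp451 had 80.5% ± 2.95 in row 6 of 18. Zfp207, a spindle assembly factor that stabilizes Bub3, had 35.5% ± 4.04 in row 14 of 14 and 27.9% ± 3.36 in row 12. In Zfp207 the share of row 14 ranged from 25.3% to 45.9% over the mice.

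The spread of these shares was set against counting error, with 3′ bias, depth range and sex held fixed. Over 522 rows tested in 106 members, the residual SD of the log2 ratio of a row to the rest of its gene was a median of 1.08 times the counting error, and at least 2 times in 8 rows. Zfp207 row 14 was highest, at 3.46 times. Zfp106 row 8 followed at 2.94 times, with a share from 2.81% to 8.86% of the gene. Zfp451 row 6 was at 2.74 times and row 13 at 2.36 times. In Zfp945 rows 2 and 5 were both at 2.22 times, with row 2 from 2.09% to 33.6%, and these are the rows left to form the ratio, so they mirror each other. Zfp511 row 5 was at 2.19 times, from 3.96% to 55.4%.

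No exon row of a member passed the threshold between responders and non-responders. limma on the log2 ratio of each row to the rest of its gene called 15 of 66244 rows, or 0.0226%, and 0 of the 522 member rows. At an unadjusted p under 0.05 there were 24 member rows, 4.6% of those tested against 4.8% of all rows, and the diffSplice test of limma also called 0 member rows. The smallest p was that of Zfp318 row 2 of 11. Zfp318 controls alternative RNA processing in B cells, and its row 2 held 0.779% ± 0.237 of the gene in responders and 1.03% ± 0.299 in non-responders (SD, n = 30 each), a difference of -0.35 (log2, SE 0.10, limma adjusted p = 0.426). Zfp451 row 14 was at -0.37, Zfp512b row 13 at 0.32, Zfp385b row 17 at -0.22 and Zfp451 row 6 at 0.18 (limma adjusted p from 0.582 to 0.802). Zfp451 row 6 held 81.5% ± 2.84 in responders and 79.4% ± 2.70 in non-responders, so the groups differed by less than 1 SD.

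**Figure D4:**
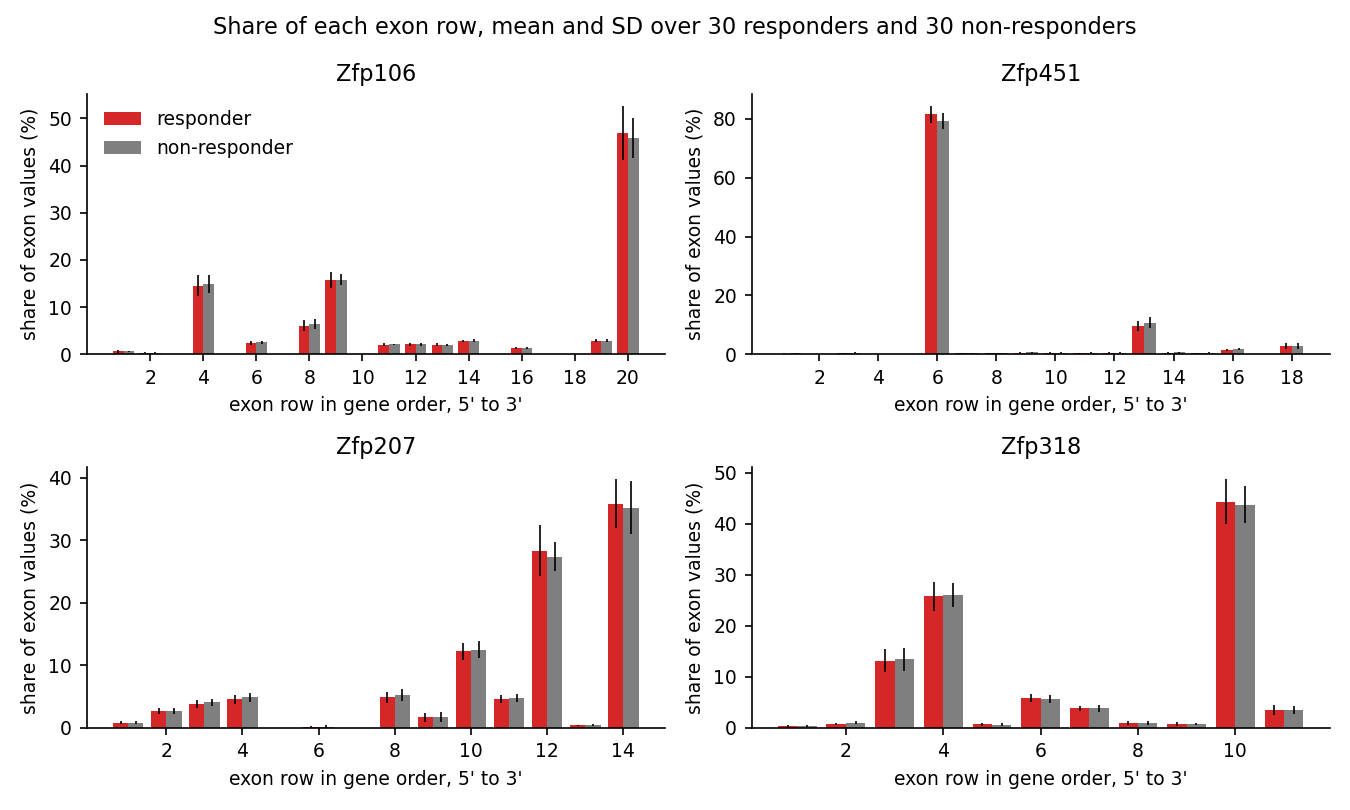
Share of the exon values of Zfp106, Zfp451, Zfp207 and Zfp318 in each exon row, ordered 5′ to 3′, as the mean with SD over 30 responders (red) and 30 non-responders (grey). The SD ranges of the groups overlap in each row, Zfp451 row 6 standing at 81.5% and 79.4%.

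Between the sexes, limma called 0 of 66244 rows, or 0%, and 0 member rows, while 13 member rows (2.49%) had an unadjusted p under 0.05 against 2.62% of all rows, and diffSplice called 6 rows of which 0 were member rows. Zfp169 row 5 of 5 held 19.1% ± 6.14 in females (n = 28) and 15.3% ± 4.59 in males (n = 32), with its row 4 at 77.0% ± 5.50 and 80.4% ± 4.54. These are nearly all of the values of the gene and mirror each other. The difference of row 5 was -0.36 (log2, SE 0.13, limma adjusted p = 1). Zfp462 row 6 was at 0.26, Zfp346 row 5 at -0.14 and Zfp318 row 2 at 0.23.

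Over the 8001 pairs of members, the Pearson correlation of log2 levels across the 60 mice had a median of 0.0751, with 5% of pairs under -0.602 and 5% above 0.756. Over all pairs of genes averaging at least 100 the median was 0.00843. All pairs share the same libraries, and pairs with steep 3′ bias slopes stood at the ends. Zfp871 and Zfp507 had r = 0.956 (Spearman rho 0.862), which was 0.9 without the 2 mice farthest from the median of Zfp871 and 0.5 with library terms held fixed. Zfp871 with Zfp382 had r = 0.945 and with Zfp369 r = 0.939, Zfp142 with Zfp507 r = 0.939 and with Zfp609 r = 0.938. The lowest were Zfp637 with Zfp609 at -0.842, Zfp142 with Zfp639 at -0.836 and Zfp292 with Zfp637 at -0.83. With library terms held fixed, Zfp637 and Zfp609 stood at -0.361.

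With 3′ bias, depth range and sex held fixed, the median over member pairs was 0.0406, against 0.00868 over all genes. Zfp62 and Zfp120, on chromosomes 11 and 2, then had the highest value, with r = 0.836 and rho 0.77, and r = 0.818 without the 2 farthest mice. Zfp654 with Zfp942 was at 0.815, with Zfp715 at 0.801 and with Zfp62 at 0.789, and Zfp729b with Zfp120 was at 0.798. These 6 genes lie on 6 different chromosomes. The lowest were Zfp24 with Zfp777 at -0.808 (rho -0.829), Zfp318 with Zfp771 at -0.783 and Zfp729b with Zfp746 at -0.782. The correlations are descriptions over 60 mice, and the part of cell makeup or genotype in them was not tested.

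**Figure D5:**
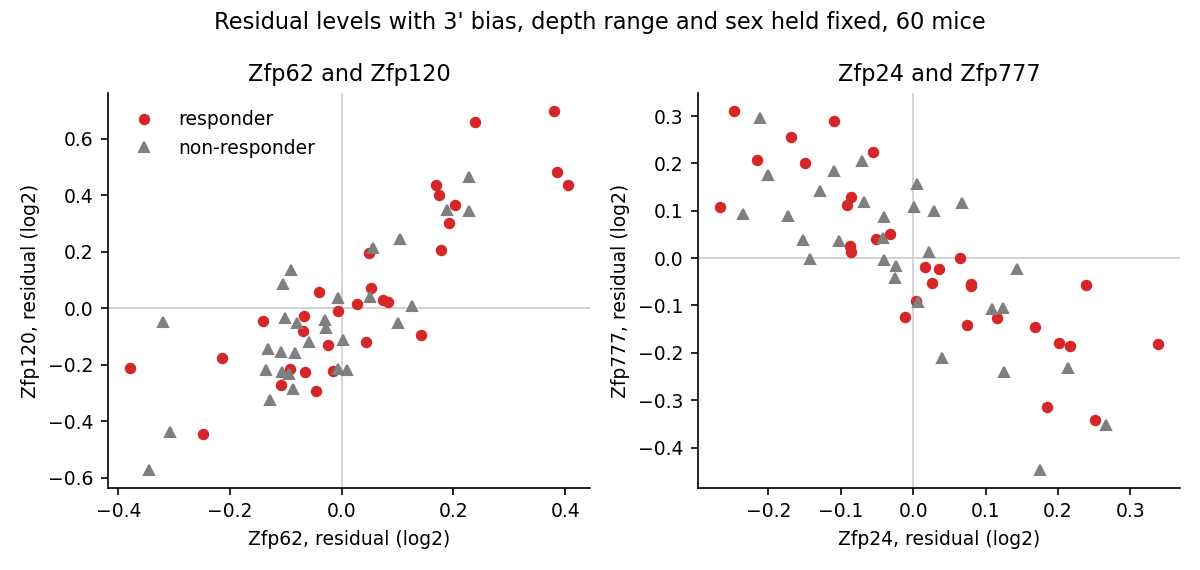
Residual log2 level, with 3′ bias, depth range and sex held fixed, of Zfp120 against Zfp62 (left) and of Zfp777 against Zfp24 (right), 1 point per mouse, red circles for responders and grey triangles for non-responders. The left pair rises together (r = 0.836), the right pair runs opposite (r = -0.808), and both phenotypes lie along each course.

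Members that lie next to each other were looked at because the family is clustered. There were 29 neighbouring pairs of members less than 500 kb apart, with a median r of 0.491 and of 0.298 with library terms held fixed, against 0.0751 and 0.0406 over all member pairs. The 29 include the overlapping pairs Zfp174 with Zfp597 and Zfp668 with Zfp646. Neighbouring pairs of other genes were not examined, so a higher correlation of neighbours was not shown to be particular to Zfp genes. Zfp282 and Zfp777, 116 kb apart on chromosome 6, were at 0.687 with library terms held fixed, and Zfp777 and Zfp746, 13.5 kb apart, at 0.641. Zfp668 and Zfp646 on chromosome 7 were at 0.643, but these overlap and may share reads. Zfp606 and Zfp329 were at 0.625 and Zfp84 and Zfp790 at 0.602. In 8 of the 29 pairs the value exceeded 0.5. Zfp180 and Zfp428 were at -0.256, so neighbours did not always move together.

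In the networks built from all 60 mice, connectivity was the sum of a gene's absolute correlations to the power of 6, and it is given as a percentile among the 9066 genes. The median percentile of the members was 46.6 for coexpression, 43.5 for cosplicing, which compares exon profiles by cosine distance, and 48 for CoSplicEx, which uses Canberra distance and so also responds to level. Over the 7849 genes averaging at least 100 these medians were 48.5, 56.4 and 55.4. Those genes were matched neither for level, at a median of 784 against 420 in the members, nor for exon rows, at 11 against 6. The top 10% of genes held 17, 12 and 7 members, or 13.4%, 9.45% and 5.51% of the 127. The counts were 16, 14 and 10 without mouse 63 and 13, 15 and 7 in deep libraries, so coexpression fell to 10.2% and cosplicing rose to 11.8% in deep libraries. Zfp142, Zfp318 and Zfp609 led coexpression at percentiles of 100, 99.7 and 97.9. Zfp638, Zfp644 and Zfp407 led cosplicing at 99.1, 98.8 and 98.7, while Zfp638 stood at 17.5 in coexpression. Zfp142, Zfp445 and Zfp236 led CoSplicEx at 98.5, 97.6 and 96.6. Without mouse 63 Zfp142 stood at 99.8 in coexpression and 97.5 in CoSplicEx, and Zfp236 at 94.4 in CoSplicEx. In coexpression Zfp445 then moved from 87.4 to 73.9 and Zfp236 from 29.2 to 11.8. That setting kept the strongly biased mice 5, 4 and 62, where Zfp142 read 515, 504 and 577, below all unbiased mice (lowest 639). The deep libraries include all of the strongly biased ones. No network was built without all of these libraries or with library terms held fixed. The part of 3′ bias in these percentiles and counts was therefore not tested. Members with a KRAB pattern had median percentiles of 30.95, 35.9 and 32.2, and the others of 52.9, 54.7 and 52. Their median levels, 283 against 494, and exon rows, 5 against 7, differed too, and the part of either in connectivity was not tested.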

How the data were processed

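Reads from 60 poly(A) libraries were aligned by the authors with Bowtie 0.12.7 to NCBI m37 and summarized on Ensembl 59 union exons. Values in the deposited gene table are a signal, read counts multiplied by an edgeR 3.4.2 upper quartile factor per library, from which whole reads were recovered within 0.1 for 100% of values. Values in the deposited exon table are a score, exon counts scaled likewise and rounded. GENCODE M21 gave symbols for 97.7% of the identifiers, and gene structure.

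The members and lists were chosen with earlier results of these data known. Named genes were those with the highest and lowest mean, variation, correlation, gap and connectivity, those with the smallest p per comparison, and those of known function, and other members were named after their values were seen. limma 3.58.1 in R 4.3.3 was run with the trend option on log2(value + 1) for genes averaging at least 10, with sex as a term, and on log2 ratios of exon rows averaging at least 10. P-values were adjusted by Benjamini-Hochberg over all features, with a threshold of 0.05. edgeR 4.0.16 and DESeq2 1.42.0 on recovered reads, other pseudocounts, filters, terms and libraries were alternatives. Descriptions used Python 3.11.15. On simulated data for the response comparison with 8535 genes, limma recovered 57.5% of 200 genes changed by 0.25 on the log2 scale and 92% of those changed by 0.5, and for exon usage 100% of 200 rows changed by 1. False calls numbered 3, 10 and 19 in the same order. A change of 1 is larger than the response differences of the member rows named above. Each gene or row was drawn on its own with no shared 3′ bias, so the simulation does not cover that part of the real data. Network functions were tested on simulated data too. Each mouse is 1 library, and errors come from the differences between mice. Every pair of libraries differed by more than sampling noise (smallest chi-square per gene 3.04).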

Additional observations from a re-analysis of the deposited data

How the results depend on the processing

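The number of members called was 0 for response, sex, their interaction and both exon comparisons under each alternative run, which numbered 14, 9, 9, 8 and 8. The smallest adjusted p of a member in any of them was 0.0792, for response in limma with 3′ bias and depth range as terms. Over all genes, the count for response was 9 and became 23 with DESeq2, 20 with depth range as a term, 59 with 3′ bias as a term, 83 with both terms, an alternative added after seeing the data, 3 in deep libraries and 0 in shallow libraries, in females and in males. For sex it was 3 and became 0 in deep libraries. For exon usage by response the count over all rows was 15 and became 47 with 3′ bias as a term, 28 without the 4 most biased mice, 8 in deep libraries and 88 with diffSplice, and for exon usage by sex it went from 0 to 6 with diffSplice.

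The relation to 3′ bias and the shallow against deep contrast were added after seeing the data. Without the 4 most biased mice, members falling with bias went from 61 to 1 and rising from 30 to 1, and over all genes from 2966 to 32 and from 2999 to 7. Within shallow libraries the members numbered 0 and 0, and all genes 65 and 0. The slopes of Zfp445, Zfp428, Zfp771 and Zfp524 turned to 0.171, -0.166, -0.0146 and -0.0497 without those mice, and those of Zfp445, Zfp771 and Zfp524 to 0.660, -0.971 and -0.906 in shallow libraries. Members lower in shallow libraries went from 5 to 2 without those mice, and all genes from 674 to 186. In shallow libraries the response differences of Zfp945, Zfp760 and Zfp180 turned to -0.0200, -0.0611 and -0.00753. The causes were not tested. Medians of variation and connectivity moved by less than 1 SD over members, and the median pair correlation by less than 1 SD over pairs. These limits are wide and do not show that the medians were stable. The median pair correlation was 0.0751 and became 0.0406 with 3′ bias, depth range and sex held fixed. No paired analysis was possible because each mouse number occurs once. At 4913122 to 21872744 reads per mouse the median SE of a member's response difference was 0.058 on the log2 scale. Differences well above the SE could also be missed. Zfp180, at 0.17, had a limma adjusted p of 0.827, and in the simulation limma recovered 57.5% of genes changed by 0.25.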
